A study of Mus musculus with 12 samples.

Results

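The respiratory chain and ATP synthase are described here across 12 microarrays of differentiated mouse fibroblasts. Members were the genes whose symbol begins with Nduf, Uqcr, Cox4 to Cox8 or Atp5, the succinate dehydrogenase genes Sdha, Sdhb, Sdhc and Sdhd, and Cyc1 and Cycs. They came to 86 of the 12393 genes that had a probe set (a group of array probes read as 1 value) with a single symbol, on 160 probe sets. Each gene was read from its brightest probe set, and 84 of the 86 passed the filter on dim genes, an intensity of 98.7. Cox6a2 and Cox6b2, subunit isoforms of cytochrome c oxidase found mainly in muscle and in testis, lay below it. The 84 tested members were 34 genes of complex I, 5 complex I assembly factors (Ndufaf genes), 4 of complex II, 9 of complex III, cytochrome c itself, 14 of complex IV and 17 of ATP synthase. Ndufa4 was counted with complex I by its name, although the protein is now known as a complex IV subunit.

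The respiratory chain sits in the inner mitochondrial membrane. Complex I takes electrons from NADH and complex II takes them from succinate, both passing them to coenzyme Q. Complex III hands them on to cytochrome c, and complex IV passes them to oxygen. The proton gradient built on the way drives ATP synthase, whose F1 head makes ATP and whose membrane part carries the protons. Nearly all subunits are encoded in the nucleus, and fat cells gain mitochondria as they differentiate. PPARγ, the nuclear receptor that drives this differentiation, binds thiazolidinediones such as rosiglitazone.

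All cells were mouse embryonic fibroblasts knocked out for PPARγ, given back 1 form of the receptor and differentiated for 6 days. The 4 groups of 3 arrays each were cells with S273A PPARγ (alanine in place of serine at that position), cells with wild-type PPARγ treated with 1 µM rosiglitazone for 24 h, cells with wild-type PPARγ treated with 1 µM MRL24 for 24 h, and untreated cells with wild-type PPARγ. MRL24 is another PPARγ ligand, known as a weaker agonist. The labels name no vehicle, and they do not say whether replicates came from separate cultures, so p-values measure only the spread between arrays, which may be technical. The S273A and wild-type cells are separate cell populations, so the effect of the substitution and a difference between the populations cannot be told apart.

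Untreated wild-type replicate 2 stood apart in these genes. Its member median lay 0.13 above the untreated mean on the log2 scale, against -0.05 for replicate 1 and -0.07 for replicate 3, and 70 of 84 members lay above their group mean on it. Its residual SD over all genes was 0.148, against 0.095 to 0.125 on the other 11 arrays. The counts of called members and the medians over all members, against untreated cells, are therefore given with and without it. Other values against untreated cells include it unless stated, those of the gene lists and the complex IV isoforms among them. The plot of medians by array shows the same array high in complex I and in ATP synthase.

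The cells carried adipocyte and fibroblast transcripts together. The summed intensity of the 12 adipocyte markers on the array (of 13 listed, 9 past the filter) was 15020 to 16191 in S273A cells, 33599 to 33939 with rosiglitazone, 21362 to 21496 with MRL24 and 13960 to 15715 in untreated cells. Fabp4, a fatty acid carrier, made up most of that sum, while adiponectin (Adipoq), the lipid droplet protein Cidec and leptin (Lep) lay below the filter. The 10 fibroblast markers summed to 122389 to 129224 in S273A cells, 128780.0 to 134872 with rosiglitazone, 134966 to 140369 with MRL24 and 126096 to 137488 in untreated cells, MRL24 lying above every rosiglitazone and S273A array. All 10 skeletal muscle markers (3 past the filter) summed to 1019 to 1177, and all 6 endothelial markers (3 past the filter) to 728 to 1098. All 9 macrophage markers (5 past the filter) summed to 3970 to 4131 in S273A cells, 3464 to 3822 with rosiglitazone, 3551 to 3623 with MRL24 and 3290 to 3767 in untreated cells. Of the brown or beige adipocyte markers, 2 of 8 passed the filter, and Ucp1 did not. All 5 on the array summed to 6828 to 7570.1 in S273A cells, 7251 to 7564 with rosiglitazone, 6724 to 7083 with MRL24 and 7290.4 to 7834 in untreated cells. In this sum MRL24 lay below every rosiglitazone and untreated array. Dio2 made up most of that sum, with means of 6912.5 in S273A cells, 7041 with rosiglitazone, 6584 with MRL24 and 7131 in untreated cells. Elovl3, the other marker past the filter, was highest with MRL24 (mean 234, against 223 with rosiglitazone and 232 in untreated cells). The part of the adipocyte, brown or beige and fibroblast markers in the results below was not tested, and in bulk RNA fewer cells of a type and less RNA per cell cannot be told apart.

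**Figure D1:**
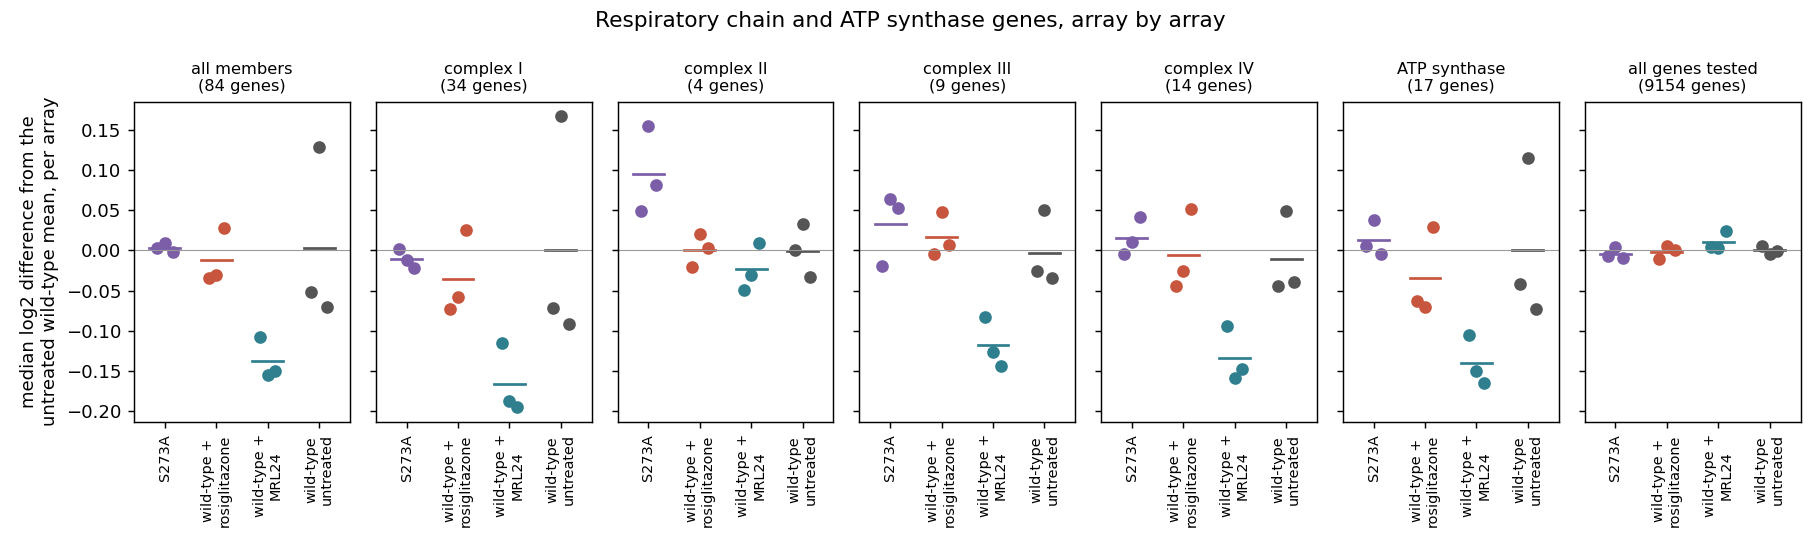
Median log2 difference from the untreated wild-type mean over the genes of each complex, 1 point per array, with the group mean as a line; the y axis is on the log2 scale. The 3 MRL24 arrays lay at -0.11 to -0.16 over all 84 members, while over all 9154 genes every array lay within 0.025 of 0.

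MRL24-treated cells had the lowest levels of these genes. The MRL24 mean was the lowest of the 4 groups in 70 of 84 members (83.3%), against 20.3% of all genes tested. Without untreated replicate 2 it was the lowest in 65 of 84. Over all members the median difference from the untreated mean was 0.004 ± 0.006 in S273A cells, -0.01 ± 0.04 with rosiglitazone, -0.14 ± 0.03 with MRL24 and 0.002 ± 0.11 in untreated cells (SD over 3 arrays each, log2 scale). These shifts are small, and the untreated spread comes mainly from replicate 2. The members were bright genes, 68 of 84 lying above the 75th percentile of mean level, and the genes above that percentile had a median change within 0.011 of 0 in every comparison.

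Rosiglitazone against MRL24 compares the 2 ligands at the same dose and time in the same cells, and its differences do not involve the untreated arrays. Of 84 members, 78 were higher with rosiglitazone, with a median log2 difference of 0.12, while the median of all genes was -0.02. Complex I had 33 of 34 genes higher (median 0.15), complex III 9 of 9 (0.13), complex IV 11 of 14 (0.11), ATP synthase 17 of 17 (0.08) and complex II 3 of 4 (0.05). The 3 rosiglitazone arrays all lay above the 3 MRL24 arrays in 48 members (57.1%), against 10.8% of all genes. Called by limma over all 9154 genes at an adjusted p under 0.05, 4 members were higher (Cycs, Atp5g1, Ndufb8 and Uqcrb), against 1.41% of all genes, and 0 were lower, against 1.09%. At an unadjusted p under 0.05 there were 36 of 84 members in either direction, against 1366 of all 9154 genes. Untreated replicate 2 entered here through the pooled spread and, like every array, through the choice and filter of probe sets. With it left out of the fit, 30 members were called higher, against 2.65% of all genes. Of the 4 genes above, only Cycs kept its call without rosiglitazone replicate 2 or without MRL24 replicate 2. Those fits called 115 and 97 of all 9154 genes in either direction.

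**Figure D2:**
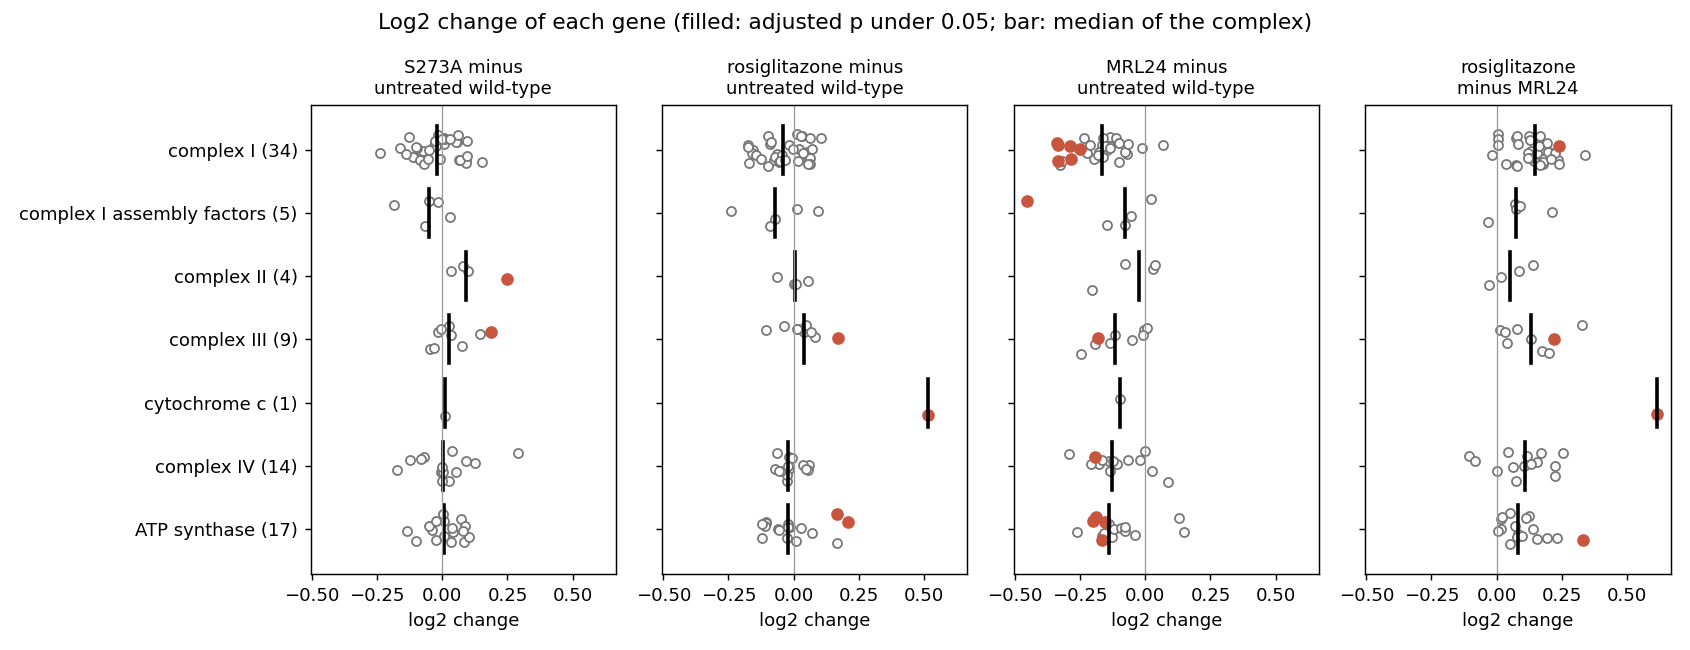
Log2 change of each of the 84 tested genes (x axis) by complex (rows) in the 4 comparisons, with called genes filled and the median of each complex as a bar; vertical scatter within a row has no meaning. With MRL24, 75 of 84 genes lay below 0, and against MRL24 78 of 84 lay above 0 with rosiglitazone.

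Cytochrome c, the soluble carrier between complexes III and IV, changed most. Cycs had intensities of 8924, 9078 and 9596 with rosiglitazone, 5968, 6156 and 5900.0 with MRL24, and 5712, 7682 and 6056 in untreated cells. Every rosiglitazone array lay above every other array, untreated replicate 2 included. Rosiglitazone exceeded MRL24 by 0.61 ± 0.08 (SE, log2 scale), a fold of 1.53 (limma, adjusted p = 0.000183). It exceeded untreated cells by 0.52 ± 0.08, a fold of 1.43 (limma, adjusted p = 0.000409). Both calls held in all 23 alternative settings, with log2 changes of 0.58 to 0.63 against MRL24 and 0.43 to 0.64 against untreated cells. MRL24 itself differed from untreated cells by -0.10, with a 95% interval of -0.26 to 0.06. S273A cells, at 6609, 6360 and 6470, lay inside the untreated range.

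The other 2 probe sets of Cycs behaved alike. One read 6318, 6325 and 6630 with rosiglitazone, 4314, 4229 and 4102 with MRL24, and 3869, 4910 and 3988 in untreated cells. The other read 2123, 2158 and 2089 with rosiglitazone, 1312, 1382 and 1331 with MRL24, and 1318, 1565 and 1354 in untreated cells. In each, the rosiglitazone arrays did not overlap with either of the other groups.

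The promoter windows of Cycs, of Atp5b, an ATP synthase gene that rose with rosiglitazone, and of Ndufb8, the complex I gene called between the ligands, are shown because the results turn on these genes. Each runs from 250 bases before to 50 after the start, from RefSeq on GRCm38.p6, 5′ to 3′ on the gene's strand. The Cycs window is chr6:50566520-50566819 on the minus strand, the Atp5b window is chr10:128083057-128083356 on the plus strand, and the Ndufb8 window is chr19:44555393-44555692 on the minus strand. Capitals mark matches to any of the motifs described after them.
Cycs: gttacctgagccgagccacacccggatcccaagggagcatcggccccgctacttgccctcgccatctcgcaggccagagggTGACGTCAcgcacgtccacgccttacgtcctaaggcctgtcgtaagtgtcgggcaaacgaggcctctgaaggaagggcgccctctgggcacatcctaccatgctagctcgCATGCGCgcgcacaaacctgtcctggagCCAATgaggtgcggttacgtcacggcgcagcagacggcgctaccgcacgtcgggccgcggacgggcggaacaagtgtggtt
Atp5b: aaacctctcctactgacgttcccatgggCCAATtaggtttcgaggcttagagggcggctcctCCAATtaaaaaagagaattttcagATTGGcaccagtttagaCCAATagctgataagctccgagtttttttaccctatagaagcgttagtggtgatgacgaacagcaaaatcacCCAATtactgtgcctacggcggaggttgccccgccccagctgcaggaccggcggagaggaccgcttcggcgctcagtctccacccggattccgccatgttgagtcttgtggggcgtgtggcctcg
Ndufb8: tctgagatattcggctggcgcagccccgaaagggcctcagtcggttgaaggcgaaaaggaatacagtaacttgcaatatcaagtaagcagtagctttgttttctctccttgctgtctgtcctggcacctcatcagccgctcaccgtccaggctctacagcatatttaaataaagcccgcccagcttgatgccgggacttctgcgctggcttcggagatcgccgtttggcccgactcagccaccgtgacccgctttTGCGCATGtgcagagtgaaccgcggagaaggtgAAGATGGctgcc

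Motifs were searched on both strands in 2 rounds, 8 in all, in the 71 members with a window. The first round held 5 motifs. The NRF1 half-site TGCGCA was in 23.9% of members, against 8.06% of the windows of all 27025 genes. The ETS site of GABP, CCGGAAG, was in 23.9% against 9.12%, the ERR half-site AAGGTCA in 9.86% against 4.66%, and the YY1 site AAGATGG in 12.7% against 6.48%. The TATA box TATAAA was in 9.86% of members, against 14.2% of all genes. This round had no match in the Cycs or Atp5b window, and in Ndufb8 it matched the NRF1 half-site and the YY1 site. The second round of 3 motifs was chosen after those windows had been read and to include letters seen in Cycs, so its matches there carry no weight. It held a longer NRF1 core, CATGCGC, in 21.1% of members against 4.04% of all genes, the cAMP response element TGACGTCA in 5.63% against 1.88%, and the CCAAT box CCAAT in 40.8% against 37.9%. Every capital in the Cycs and Atp5b windows comes from the second round, and in Ndufb8 the NRF1 core overlaps the half-site. A match is a string of letters, not a binding site, and no motif was tested against the changes in level. The windows of all genes were not matched to those of the members for their share of G and C bases or for expression in these cells.

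The other members called between the ligands came from 3 complexes. Uqcrb, a small complex III subunit, read 10654, 11104 and 11187 with rosiglitazone and 9267, 9354 and 9663 with MRL24. It was higher with rosiglitazone by 0.22 ± 0.05 (SE, log2 scale; limma, adjusted p = 0.0141), while its second probe set differed by 0.14. The call was lost in 6 of 23 settings, where the adjusted p reached 0.239, the mean of all probe sets among them. Ndufb8, an accessory subunit of complex I, read 3508, 3579 and 3463 with rosiglitazone and 3061, 2923 and 2953 with MRL24, a difference of 0.24 ± 0.05 (limma, adjusted p = 0.0109) whose call was lost in 4 of 23 settings. Atp5g1, 1 of 3 genes for the same subunit c of the ATP synthase ring, read 1667, 1691 and 1676 with rosiglitazone and 1353, 1391 and 1253 with MRL24. It differed by 0.33 ± 0.08 (limma, adjusted p = 0.0487) and lost its call in 13 of 23 settings. None of the 3 overlapped between the ligands. The other subunit c genes differed by 0.05 (Atp5g2, adjusted p = 0.549) and 0.11 (Atp5g3, adjusted p = 0.0976, both limma).

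**Figure D3:**
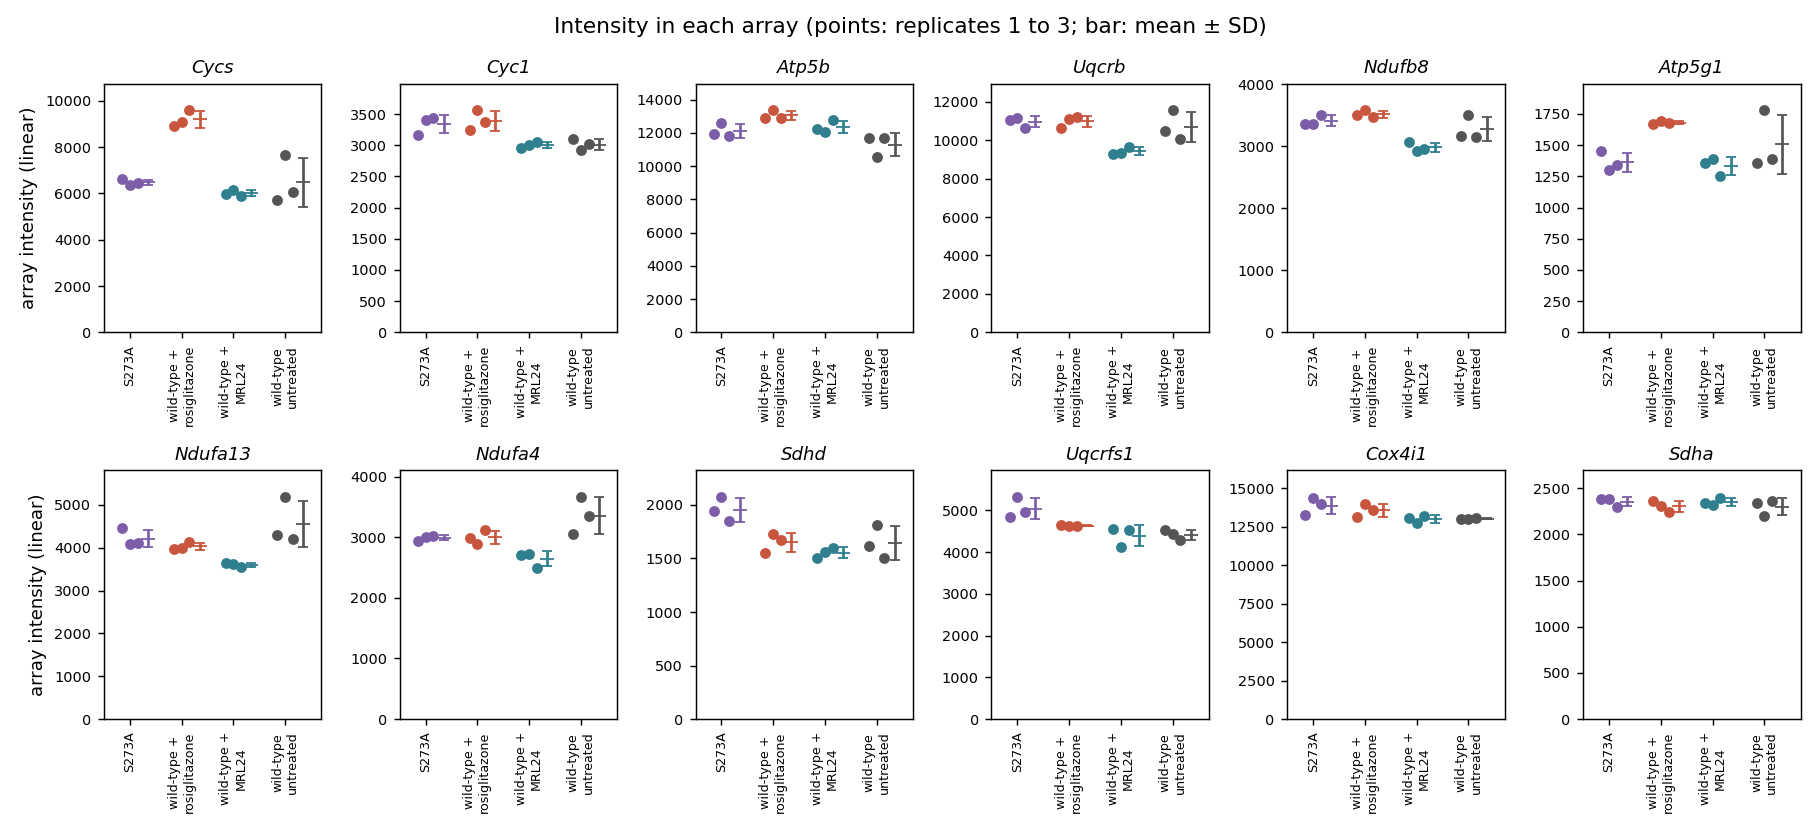
Linear array intensity (y axis, starting at 0) of 12 genes in each array of S273A, rosiglitazone, MRL24 and untreated wild-type cells, with the mean ± SD beside the points. Cycs stands at 8924 to 9596 with rosiglitazone, above all other arrays, and untreated replicate 2 is the highest untreated array in Cycs, Uqcrb, Ndufb8, Atp5g1, Ndufa13, Ndufa4 and Sdhd.

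With rosiglitazone 4 of 84 members were called higher than in untreated cells, a share close to that of all genes. The median log2 change of all members was near 0. The 4 called higher (Cycs, Atp5b, Cyc1 and Atp5a1) stand against 3.7% of all genes, and 0 were called lower, against 4.19%. The median over the 84 was -0.02, with 37 above 0 and 47 below. Atp5b, the catalytic beta subunit of the F1 head, read 12894, 13360 and 12916 with rosiglitazone and 11696, 10529 and 11670 in untreated cells. It rose by 0.21 ± 0.04 (SE, log2 scale; limma, adjusted p = 0.00588), and the call held in 22 of 23 settings. Atp5a1, the alpha subunit, read 14634, 14973 and 14618 with rosiglitazone and 13864, 11983 and 13657 in untreated cells, a rise of 0.17 ± 0.05 (limma, adjusted p = 0.0386). Cyc1, the cytochrome c1 of complex III, read 3241, 3562 and 3371 with rosiglitazone and 3097, 2920.1 and 3020 in untreated cells, a rise of 0.17 ± 0.05 (limma, adjusted p = 0.0396).

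Untreated replicate 2 was the lowest untreated array for these 3, against its direction in most members. Without it, Atp5a1 and Cyc1 lost their calls. Across settings the adjusted p reached 0.953 for Atp5a1 and 0.187 for Cyc1. The other bright probe set of Atp5a1 rose by 0.09 and a dim one differed by -0.23. In MRL24 cells Atp5a1 and Atp5b were also above untreated cells, by 0.15 and 0.13, without passing the test (limma, adjusted p = 0.0702 and 0.0828). Without untreated replicate 2, 6 members were called higher with rosiglitazone, against 3.02% of all genes, and the median was 0.05.

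With MRL24, 13 members fell against untreated cells and 75 of 84 lay below 0, with a median log2 change of -0.14 against 0.01 over all genes. The 13 called lower stand against 2.29% of all genes, and 0 were called higher, against 3.21%. The MRL24 arrays lay below all 3 untreated arrays in 45 members (53.6%), against 13.7% of all genes. How many were called depended on single arrays, with 0 to 27 members called over the 12 fits that each left out 1 array. The same fits called 74 to 813 of all 9154 genes, in either direction. Without untreated replicate 2, 71 of 84 members still lay below 0, the median was -0.08, and Ndufa13 and Ndufa4 were called lower, against 0.513% of all genes.

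Complex I held 6 of the 13, with Ndufa4 counted there by its name. Ndufa13, also known as GRIM-19, read 3636, 3609 and 3540.3 with MRL24 and 4292, 5181 and 4211 in untreated cells. It fell by 0.34 on the log2 scale (SE 0.06, limma adjusted p = 0.0101). Ndufa4 read 2710.4, 2724 and 2499 with MRL24 and 3044, 3661 and 3355 in untreated cells, and it fell by 0.34 (SE 0.06, limma adjusted p = 0.00849). Both kept their call in 21 of 23 settings and lost it without MRL24 replicate 3 and with only the 6 arrays compared. They were the steadiest of the 13.

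The remaining complex I genes that fell were accessory subunits that surround the catalytic core. Ndufa3 read 1913, 2012 and 1853 with MRL24 and 2197, 2864 and 2284 in untreated cells, a change of -0.33. Ndufb3 read 2069, 1940.0 and 1904 with MRL24 and 2143, 2763 and 2364 in untreated cells, a change of -0.29. Ndufb10 read 2000.0, 1989 and 1886 with MRL24 and 2274, 2769 and 2158 in untreated cells, a change of -0.28. In each, all MRL24 arrays lay below all untreated arrays, and replicate 2 was the highest untreated array. Their adjusted p-values by limma were 0.031, 0.0322 and 0.0454, and all 3 lost the call without that array. Ndufb11 changed by -0.25 (limma, adjusted p = 0.0492). It kept its call in 7 of 23 settings, and lost it without untreated replicate 2 and with the mean of all probe sets. All 28 complex I genes outside the catalytic core, with Ndufa4 counted among them, lay below 0, with a median of -0.17. Of the 6 core genes, those conserved in bacteria, 5 lay below 0, with a median of -0.12 and 0 called (3 at an unadjusted p under 0.05, against 2244 of all 9154 genes). Without untreated replicate 2 the medians were -0.08 (26 of 28 below 0) and -0.09 (5 of 6), so their order turned round, and the difference between core and other genes was not tested.

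Ndufaf5, an assembly factor that modifies a core subunit of complex I, had the lowest change. It read 234, 222 and 237 with MRL24 and 267, 357 and 349.8 in untreated cells, a change of -0.45 ± 0.11 (SE; limma, adjusted p = 0.0279). The groups did not overlap, but the call was lost without untreated replicate 2 or 3 and without any single MRL24 array. The other 4 Ndufaf genes were not called.

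Later in the chain, 6 further genes fell with MRL24. In complex III, Uqcrb changed by -0.18 (limma, adjusted p = 0.0322). In complex IV, Cox5b, a nuclear-encoded subunit, read 6280.1, 6056 and 5918 with MRL24 and 6760.2, 7610 and 6533 in untreated cells, a change of -0.19 (limma, adjusted p = 0.0367). In ATP synthase, Atp5j changed by -0.20, Atp5o by -0.19, Atp5md by -0.16 and Atp5g2 by -0.16, with limma adjusted p-values between 0.022 and 0.0483. All 4 belong to the membrane part or the peripheral stalk, where 12 of 12 genes lay below 0, with a median of -0.16. Without untreated replicate 2, 10 of the 12 lay below 0, with a median of -0.07. In the F1 head and central stalk 3 of 5 lay below 0, with a median of -0.13, and 0 were called. There 4 had an unadjusted p under 0.05, against 2244 of all 9154 genes. Atp5a1 and Atp5b lay above 0, and Atp5d (-0.14) and Atp5e (-0.26) lay below. Atp5e had the lowest change of the ATP synthase genes (limma, adjusted p = 0.0709). Without untreated replicate 2, 3 of the 5 still lay below 0, with a median of -0.04. No test of the difference between these parts was made, and all 6 genes lost their calls without untreated replicate 2. With the mean of all probe sets, Uqcrb, Cox5b, Atp5o and Atp5g2 lost theirs too. Of 23 settings, Atp5g2 kept its call in 16, Uqcrb and Atp5j in 15, Cox5b in 13, Atp5md in 9 and Atp5o in 7. Across settings the change of Atp5g2 shrank to as little as -0.06, and its limma adjusted p reached 0.807.

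S273A cells differed little from untreated wild-type cells in these genes. The median log2 change was 0.002, 44 members lay above 0 and 40 below, and 2 were called higher, against 2.12% of all genes. None was called lower by limma, against 5.03% of all genes, and 10 of 84 members in either direction had an unadjusted p under 0.05, against 1908 of all 9154 genes, a smaller share. Sdhd, a membrane anchor of complex II, read 1943, 2074 and 1845 in S273A cells and 1614, 1817 and 1507 in untreated cells, a rise of 0.25 ± 0.07 (SE; limma, adjusted p = 0.0386). Uqcrfs1, the Rieske iron-sulfur protein of complex III, read 4846, 5323 and 4961 in S273A cells and 4538, 4433 and 4296 in untreated cells. It rose by 0.19 ± 0.05 (limma, adjusted p = 0.0249). Neither overlapped between the groups. Sdhd kept its call in 11 of 23 settings and Uqcrfs1 in 18. Without untreated replicate 2, 11 members were called higher, against 2.43% of all genes, and the median was 0.06. Without untreated replicate 3 or without S273A replicate 2, 0 were called, against 613 and 419 of all 9154 genes in either direction.

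The catalytic subunits of complex II were not called in any comparison. Sdha, the flavoprotein that oxidises succinate, read 2382, 2383 and 2296 in S273A cells, 2357, 2309 and 2242 with rosiglitazone, 2338, 2319 and 2394 with MRL24, and 2338, 2199 and 2366 in untreated cells. All 4 groups overlapped, and its log2 changes lay between -0.03 and 0.03. Sdhb, the iron-sulfur subunit, read 3126, 3516 and 3347 in S273A cells, 2721, 3133 and 3055 with rosiglitazone, 2819, 2574 and 2678 with MRL24 and 2959.6, 3278 and 3079 in untreated cells. The MRL24 arrays lay below the untreated ones without overlap, and the log2 difference of -0.21 missed the threshold (limma, adjusted p = 0.0622).

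Complex IV has isoforms used in different tissues, and none of the tested isoform genes was called in any comparison. Cox4i1 read 13033, 12738 and 13217 with MRL24 and 12970, 13018 and 13069 in untreated cells, a change of -0.003 with a 95% interval of -0.08 to 0.07. Cox7a2 read 6887, 6644 and 6603 with MRL24 and 7105, 8516 and 7075 in untreated cells, a change of -0.17 (limma, adjusted p = 0.0977). Cox6b1 (-0.18), Cox8a (-0.12) and Cox6a1 (-0.07) were not called either. Among the isoforms typical of muscle, brown fat or lung, Cox7a1 had log2 differences of -0.29 with MRL24 and 0.29 in S273A cells, with overlapping groups and no call (limma, adjusted p = 0.144 and 0.165). The log2 differences of Cox4i2 and Cox8b with MRL24 were 0.09 and 0.03 (limma, adjusted p = 0.579 and 0.891). Cox8c, a testis form, read 2228, 2123 and 2233 in S273A cells and 2558, 2501 and 2369 in untreated cells, a difference of -0.17 without overlap that was not called (limma, adjusted p = 0.175). Cox6a2 reached at most 118 and Cox6b2 at most 73.9 on any of the 12 arrays, and both were too dim on average to be tested.

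Many members had further probe sets that played no part in the choice above. There were 66 past the filter, over 43 genes. Between the ligands, 58 of the 66 were higher with rosiglitazone, with a median of 0.12, and 59 had the sign of the probe set used. With MRL24 against untreated cells, 56 of 66 lay below 0, with a median of -0.14. These share the arrays and often the transcript with the probe sets used, so they check the probes and not the samples.

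**Figure D4:**
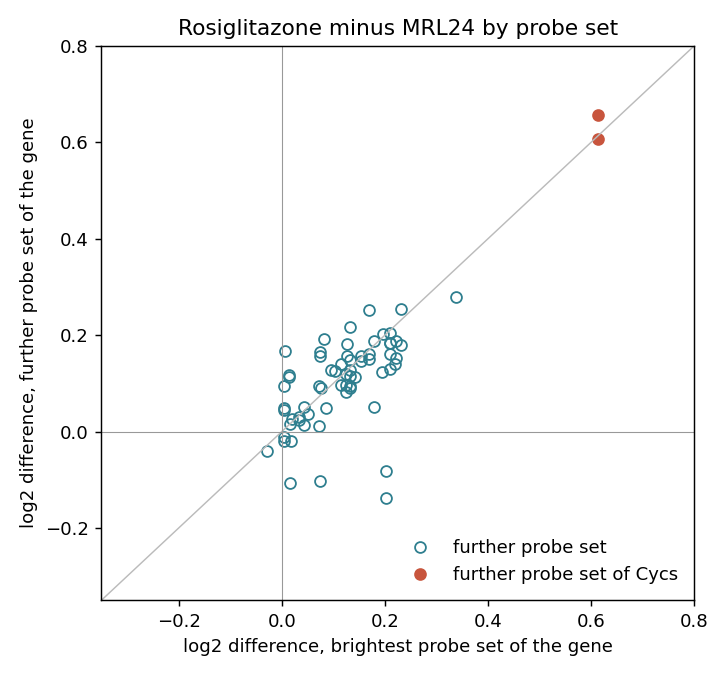
Log2 difference of rosiglitazone minus MRL24 in the 66 further probe sets (y axis) against that of the brightest probe set of the same gene (x axis), with equality as a grey line. The points lie between -0.14 and 0.66, and the 2 of Cycs stand apart at 0.61 and 0.66.

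Genes around the chain were counted from 4 lists. Of 31 assembly factors tested (44 listed), MRL24 was lower for 4 (Coa3, Pet100, Uqcc2 and Sdhaf4) and higher for 2 (Cox15 and Sdhaf2), and rosiglitazone was higher for 1, Atpaf2, a chaperone of the F1 head (0.33; limma, adjusted p = 0.00595). Their median was -0.14 with MRL24 and -0.08 with rosiglitazone. Over all genes, 2.29% were called lower and 3.21% higher with MRL24, and 3.7% higher with rosiglitazone. Of 17 regulators of mitochondrial gene expression (22 listed), Yy1 was higher with MRL24 (0.22; limma, adjusted p = 0.0344) and no other was called.

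Genes of coenzyme Q synthesis and other electron donors to coenzyme Q were called in both directions. Of 14 tested (20 listed), rosiglitazone was higher than untreated cells for Etfa (0.26) and Etfdh (0.27), which pass electrons from fatty acid oxidation to coenzyme Q, and lower for Gpd2 (-0.21) and Sqor (-0.31). Against MRL24, rosiglitazone was higher for Etfb (0.22) and Etfdh (0.25). Of 11 carriers and channels (20 listed), Slc25a5, an ADP/ATP exchanger, was higher with rosiglitazone than with MRL24 (0.27; limma, adjusted p = 0.00116) and than in untreated cells (0.18; limma, adjusted p = 0.00929). Slc25a20, the carnitine carrier, was higher with rosiglitazone than with MRL24 (0.30), and Mpc1, a pyruvate carrier subunit, was lower with MRL24 than in untreated cells (-0.24). Over all genes, limma called 3.7% higher and 4.19% lower with rosiglitazone, 2.29% lower with MRL24, and 1.41% higher with rosiglitazone than with MRL24. In S273A cells limma called 0 genes of the 4 lists, against 2.12% of all genes higher and 5.03% lower. There 6 of 31, 1 of 17, 4 of 14 and 1 of 11 had an unadjusted p under 0.05, against 1908 of all 9154 genes.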

How the data were processed

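The authors deposited linear array intensity values, 1 per probe set, for 12 arrays of biotin-labelled RNA. Software and normalization are not given in the sources used here, and how they affect small shifts is unknown. Array medians lay between 297 and 315. Of 22690 probe sets, 64 were controls and 20380 carried 1 symbol; 8 that join a member to another symbol were left out. All 86 member symbols equalled RefSeq's.

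Values were used as log2(intensity + 16). Genes under the 30th percentile of the probe sets' means, an intensity of 98.7, were left out, leaving 9154. All 12 arrays were fitted together with limma 3.58.1 in R 4.3.3 (lmFit, eBayes with trend, 8 residual degrees of freedom), with calls at 0.05 after Benjamini-Hochberg adjustment over all 9154 genes. Mean ± SD of single genes are of intensities, and those over array medians are of log2 differences. Folds and changes are of log2 values. Precision is limited by the number of arrays. An exact permutation test of 3 against 3 arrays cannot go below 0.1. The fit was tested on simulated data with noise drawn separately for each gene. That simulation held no shift shared by many genes of an array, such as that of untreated replicate 2.

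Members, lists, subdivisions of complexes and the rule for named genes were chosen with earlier results of these data known. That rule took, per comparison, up to 6 called members in each direction, the smallest adjusted p per complex, Cycs, Cyc1, Sdha, Sdhb and the complex IV isoform pairs. Alternatives were other scalings, pseudocounts, filters, probe set rules, arrays, weights and a replicate block. Promoter motifs were searched in 2 rounds, the second chosen after sequences had been read. Where the Pparg probes lie relative to the deleted or introduced sequence was not analysed.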

Additional observations from a re-analysis of the deposited data

How the results depend on the processing

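No called member changed sign under the alternatives. Members called in S273A cells numbered 1 with no filter, 1 with the mean of all probe sets, 0 with only the 6 arrays compared, 4 with array weights and 0 with no variance trend. With rosiglitazone they numbered 2 with the 6 arrays, 1 with no trend and 2 with the replicate block. With MRL24 they numbered 29 with arrays scaled to the same median, 3 with no filter, 0 with the 6 arrays and 3 with no trend. Between the ligands they numbered 8 after quantile normalization, 7 with a filter at the 50th percentile, 30 with the 6 arrays, 31 with array weights and 1 with no trend. Calls over all genes, in either direction, moved as well. With the 6 arrays they numbered 238 in S273A cells, 360 with rosiglitazone, 51 with MRL24 and 550 between the ligands. Array weights gave 644 between the ligands, and no trend gave 132. With MRL24, arrays scaled to the same median gave 689, and no trend gave 167. Leaving out 1 array gave 0 to 11, 2 to 6, 0 to 27 and 1 to 30 members called. Over all 9154 genes the same fits called 390 to 633, 385 to 765, 74 to 813 and 97 to 480. With MRL24, 27 were called without untreated replicate 1, 2 without untreated replicate 2, 8 without S273A or rosiglitazone replicate 2, 2 without MRL24 replicate 1 or 2 and 0 without MRL24 replicate 3. The median log2 change over members ranged over these fits between -0.029 and 0.063 in S273A cells, -0.056 and 0.051 with rosiglitazone, and -0.183 and -0.077 with MRL24, the upper values being those without untreated replicate 2. The cause was not tested. Among all genes called with MRL24, 294 were higher and 210 lower, against 205 and 484 after median scaling. The residuals of same-numbered arrays correlated at -0.09 to 0.13 over 18 pairs, 1 of them over 0.1. Whether a shared number means a shared culture or batch is not in the labels, and these correlations do not settle it. The replicate block gave 9 members called with MRL24, against 349 of all 9154 genes in either direction.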
